A study of Mus musculus with 12 samples.

Results

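Shp2, the protein-tyrosine phosphatase encoded by Ptpn11, was examined at the RNA level together with the adaptors that bring it to receptors and with the proteins that switch Ras on and off. The set was chosen by gene name and held 10 of the 56350 genes of the count table: Ptpn11, Gab1, Gab2, Grb2, Shc1, Sos1, Sos2, Nf1, Rasa1 and Cbl. All 10 passed the filter on low counts and were among the 17475 genes tested.

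RNA came from the bone marrow of 12 mice aged 12 to 14 weeks, of both sexes, on a C57BL/6 background, and each mouse gave 1 library. The mice formed 4 groups of 3: the combination of PD-901 (PD0325901, a MEK inhibitor) with 5-azacitidine, PD-901 alone, 5-azacitidine alone, and vehicle. PD-901 was given by mouth at 5 mg/kg in 20 doses and 5-azacitidine, a hypomethylating nucleoside analogue, into the peritoneum at 5 mg/kg in 5 doses, both over 4 weeks. Every mouse, vehicle included, carried the genotype Shp2E76K/+;LysM-Cre+, a model of juvenile myelomonocytic leukaemia (JMML), so no wild-type Ptpn11 level was at hand. LysM-Cre is active in the myeloid lineage, where the lysozyme gene Lyz2 drives it, so the marrow RNA may mix cells with and without the recombined allele, and the labels do not give their proportions.

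Shp2 acts as a positive signal relay. A growth factor or cytokine receptor is phosphorylated, Shc1 and Grb2 bind it, Grb2 brings the exchange factors Sos1 and Sos2 that load Ras with GTP, and the docking proteins Gab1 and Gab2 recruit Shp2, which sustains Ras and ERK signalling. Nf1 and Rasa1 are GTPase-activating proteins that return Ras to its GDP form, and Cbl is a ubiquitin ligase that directs activated receptors to degradation. In JMML, Ras signalling is raised by mutations of PTPN11, NF1, CBL or the RAS genes themselves.

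The mutated residue is shown first because all 12 mice share it. The codon for residue 76 of Ptpn11 lies in exon 3 of 16, on the minus strand at chr5:121167953-121167955 (mm10), in the GENCODE M21 transcripts of the gene. With 30 bases on each side, the reference coding strand reads as follows, with the glutamate codon that the E76K allele alters in capitals.
Ptpn11 codon 76: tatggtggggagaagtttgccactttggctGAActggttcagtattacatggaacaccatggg
This is the reference sequence. Counts per gene do not separate reads of the mutant and the normal allele.

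Total counts ran from 15356919 to 27148190 per library with a median of 19657932, and every one of the 10 genes had at least 92 counts in every library. CPM below is the count relative to library size, scaled by the trimmed mean of M values (TMM), and a log2 change is a difference on that scale. Lyz2, which carries the Cre, split the libraries: it stood at 44.9, 55.9 and 1151 CPM in combination mice and at 172, 147 and 3228 CPM in vehicle mice, against 4182, 700 and 2566 CPM in PD-901 mice and 2773, 3389 and 1807 CPM in 5-azacitidine mice. Xist exceeded 100 CPM in 0 of 3 combination, 2 of 3 PD-901, 1 of 3 5-azacitidine and 3 of 3 vehicle libraries, so sex as read from Xist was unevenly spread over the groups. The labels say that experiments were matched for sex, which this spread does not show. Dusp6, a target of ERK, stood at 21.2, 27.9 and 45.6 CPM in combination mice, 225, 179 and 211 CPM in PD-901 mice, 116, 233 and 164 CPM in 5-azacitidine mice and 209, 173 and 218 CPM in vehicle mice. Markers of other marrow cells also differed between combination and vehicle, with 10 of 10 erythroid and 5 of 5 neutrophil primary granule genes higher and 9 of 9 B cell precursor genes lower. Of 11 immediate early and dissociation stress genes 8 were lower, with sums of 639 to 1018 CPM in combination mice and 1862 to 2393 CPM in vehicle mice. These counts are of genes past the threshold used below, which 5.78% of all tested genes passed as higher and 7.97% as lower. The heat shock genes Hspa1a and Hspa1b of the stress list went the other way (log2 changes 1.19 and 1.95) without passing it. Mitochondrial genes took 1.75% to 1.81% of counts in combination mice, above all 9 others, and 1.16% to 1.29% in vehicle mice. The part of these differences in the results below was not tested. No marker of these lists was at 0 in all libraries. In whole marrow, fewer cells of a type and less RNA per cell cannot be told apart.

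Per kilobase of exon, Grb2 was the most abundant of the 10 at a mean of 93.9 CPM per kb over the 12 libraries, above 97.3% of tested genes. Shc1 followed at 31.7, Cbl at 26.0, Ptpn11 at 18.5 and Sos2 at 10.4 CPM per kb. Rasa1 at 6.64, Gab2 at 6.28, Sos1 at 3.36, Gab1 at 2.96 and Nf1 at 1.76 CPM per kb were lower, and the median tested gene stood at 3.46. Averaged over the 12 libraries, Sos2 was above Sos1 and Gab2 above Gab1. Gab1 varied most between libraries, its highest level being 4.27 times its lowest, and Ptpn11 least, at 1.36 times.

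**Figure D1:**
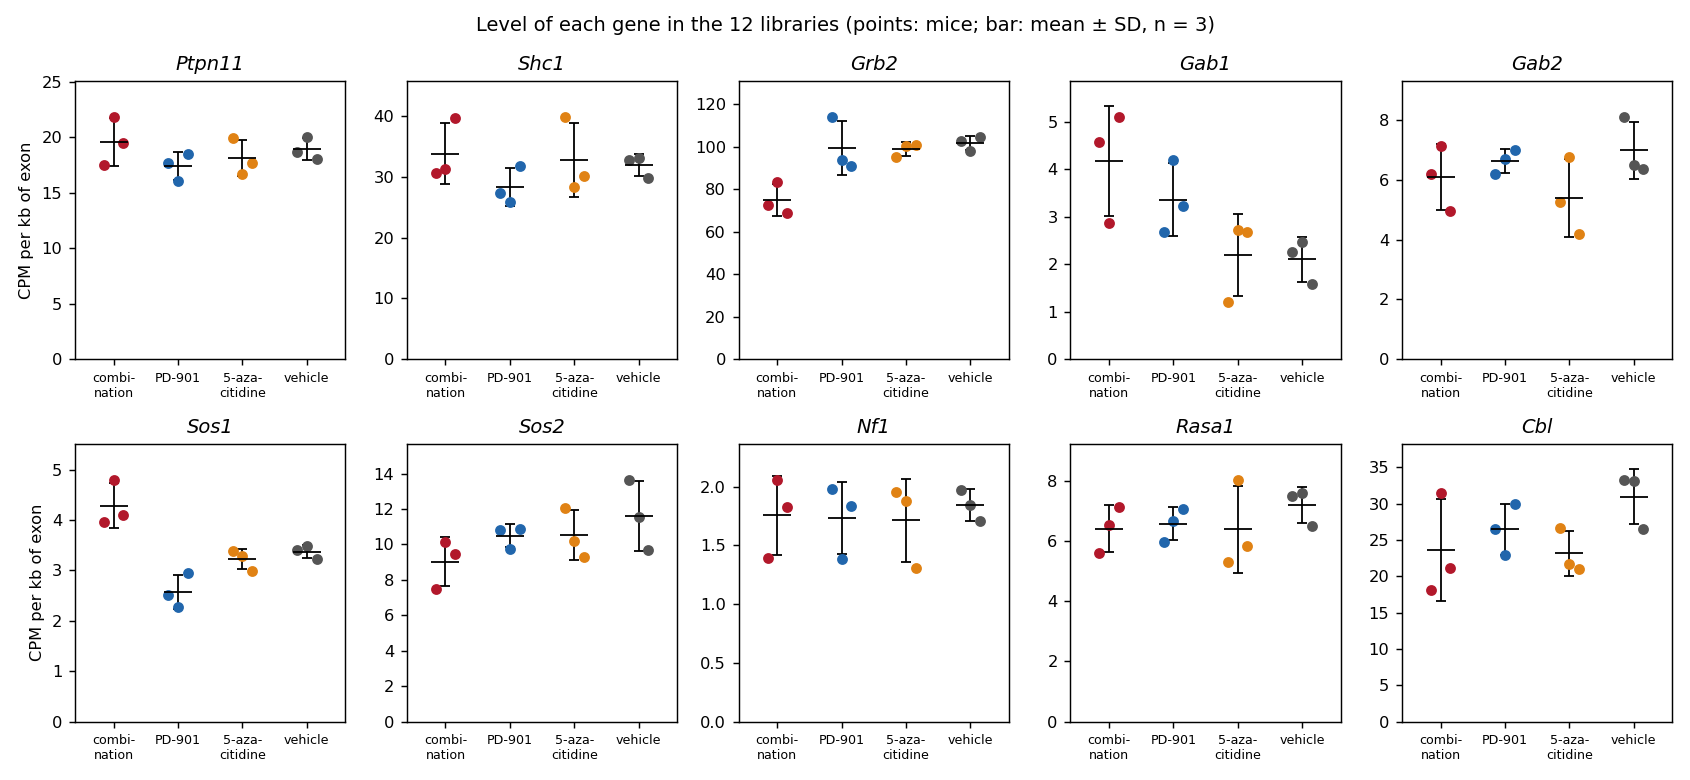
Level of each of the 10 genes in every mouse, in CPM per kb of exon, by treatment group; points are mice and bars are the mean ± SD of 3 mice. Combination mice lie below all 9 others for Grb2 and above all 9 others for Sos1, while Ptpn11 spans a narrow band in all 4 groups.

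Ptpn11 itself (ENSMUSG00000043733.14, chr5:121130533-121191397, minus strand) differed little between groups. It had 131, 163 and 146 CPM in combination mice, 132, 120 and 139 CPM in PD-901 mice, 149, 125 and 133 CPM in 5-azacitidine mice and 140, 150 and 135 CPM in vehicle mice. The 4 ranges overlapped. The log2 change of combination against vehicle was 0.05 ± 0.12 (SE, n = 3 each), with a 95% interval of -0.22 to 0.31 and an adjusted p of 0.867 (edgeR quasi-likelihood F test, Benjamini-Hochberg over all tested genes, as for each adjusted p that follows). Against vehicle it was -0.12 ± 0.12 for PD-901 (adjusted p = 0.970) and -0.06 ± 0.12 for 5-azacitidine (adjusted p = 0.851). None of these passed the threshold of 0.05.

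Of the docking proteins, Gab1 rose with the combination and Gab2 did not pass any test. Gab1 (ENSMUSG00000031714.9, chr8:80764438-80880519, minus strand), which binds Shp2 after growth factor stimulation, had 23.3, 14.6 and 25.9 CPM in combination mice, 13.6, 21.3 and 16.4 CPM in PD-901 mice, 6.07, 13.8 and 13.6 CPM in 5-azacitidine mice and 11.4, 12.6 and 8.01 CPM in vehicle mice. All 3 combination values lay above all 3 vehicle values, but combination replicate 2 was close to them and inside the PD-901 range. Means were 21.3 ± 5.90 CPM in combination mice and 10.7 ± 2.37 CPM in vehicle mice (SD, n = 3 each), a log2 change of 1.00 ± 0.31 (95% interval 0.34 to 1.66, adjusted p = 0.0444). The groups ordered as combination, PD-901, 5-azacitidine and vehicle, and no other pair of groups passed the threshold: combination against 5-azacitidine was 0.93 ± 0.31 (adjusted p = 0.146), PD-901 against vehicle 0.68 ± 0.31 (adjusted p = 0.960) and combination against PD-901 0.32 ± 0.31 (adjusted p = 0.623). The Gab1 call was near the threshold. It was lost in 7 of 12 fits that left out 1 library, those without combination replicates 1 or 3, any vehicle library, or PD-901 replicates 2 or 3, with adjusted p between 0.0546 and 0.162. The call was also lost with Lyz2 as a covariate (0.96, adjusted p = 0.0717). With Xist as a covariate it was lost too (1.47, adjusted p = 0.114), in a fit that called 0 of 17475 tested genes. Without the 4 libraries lowest in Lyz2, which leaves only replicate 3 of combination and of vehicle, the log2 change was 1.69. Since Xist exceeded 100 CPM in all vehicle and no combination libraries, sex and treatment cannot be told apart within this pair of groups. An exact two-sided permutation test on Gab1 alone gave p = 0.1 for combination against vehicle, the smallest that 3 against 3 libraries allow.

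Erythroid markers were higher with the combination, as Gab1 was. Their summed level over 10 genes was 5430, 2029 and 6459 CPM in combination mice, in the order of replicates used for Gab1, and 1666, 1822 and 1129 CPM in vehicle mice, and 10 of 10 were higher. The combination mouse lowest in Gab1, replicate 2, was also the lowest of its group in erythroid markers. The vehicle mice had the same order in erythroid markers as in Gab1. In 5-azacitidine mice the markers summed to 2500, 2943 and 3056 CPM. Replicate 1 of that group was lowest in the markers and in Gab1, while the order of the others differed. The order was not the same in PD-901 mice. There the markers summed to 3935, 3679 and 2630 CPM, and replicate 1 was highest in them and lowest in Gab1. Against vehicle, the median log2 change of the 10 markers was 0.89 for PD-901 and 0.80 for 5-azacitidine, beside 0.68 and 0.07 for Gab1. For each drug 0 of 10 markers were called, where the background was 0% of tested genes for PD-901 and 0.00572% for 5-azacitidine. Neutrophil primary granule genes, 5 of 5 higher with the combination, had an order other than that of Gab1 in every group. They summed to 9180, 8850 and 6024 CPM in combination mice and 4507, 4658 and 5358 CPM in vehicle mice. The mouse highest in Gab1 was lowest in them in combination (replicate 3) and 5-azacitidine mice (replicate 2). In PD-901 mice replicate 1 was lowest in both. The part of either kind of cell in the Gab1 result was not tested. The tested genes with the pattern most like Gab1 over the 12 libraries, by Pearson's r of log2 CPM among 13655 named genes, were Pgap3 (r = 0.93), Bbs7 (r = 0.91), Med19 (r = 0.90), Mier3 (r = 0.89) and Cnot10 (r = 0.89), values that describe 12 libraries sharing treatment and composition differences.

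Gab2 (ENSMUSG00000004508.6, chr7:97081586-97308946, plus strand), the docking protein that acts with Shp2 in cytokine signalling of blood cells, had 38.2, 44.1 and 30.5 CPM in combination mice, 38.2, 41.4 and 43.1 CPM in PD-901 mice, 32.5, 41.7 and 25.7 CPM in 5-azacitidine mice and 49.9, 40.1 and 39.2 CPM in vehicle mice. The groups overlapped, and the log2 change against vehicle was -0.20 ± 0.18 for the combination (adjusted p = 0.560) and -0.37 ± 0.19 for 5-azacitidine (adjusted p = 0.356). As a share of Gab1 plus Gab2 per kb, Gab1 made up 42.5%, 28.7% and 50.8% in combination mice, 30.2%, 38.5% and 31.5% in PD-901 mice, 18.5%, 28.6% and 39.1% in 5-azacitidine mice and 21.8%, 27.6% and 19.9% in vehicle mice. Combination and PD-901 shares were each above all vehicle shares, while the 5-azacitidine shares ran across both.

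Of the receptor-binding adaptors, Grb2 fell with the combination and Shc1 passed no test. Grb2 (ENSMUSG00000059923.13, chr11:115644045-115708597, minus strand), which holds Sos proteins by its SH3 domains, had 212, 243 and 201 CPM in combination mice, 332, 273 and 265 CPM in PD-901 mice, 278, 293 and 295 CPM in 5-azacitidine mice and 300, 286 and 306 CPM in vehicle mice. The 3 combination libraries lay below the 9 others, as did those of 5.14% of tested genes. Means were 219 ± 21.8 CPM in combination mice and 297 ± 9.85 CPM in vehicle mice (SD, n = 3 each), a log2 change of -0.44 ± 0.13 (95% interval -0.71 to -0.17, adjusted p = 0.0306). Against the single agents the changes were of like size but missed the threshold, at -0.41 ± 0.13 against PD-901 (adjusted p = 0.0660) and -0.40 ± 0.13 against 5-azacitidine (adjusted p = 0.121). Against vehicle the log2 change was -0.04 ± 0.13 for PD-901 and -0.04 ± 0.13 for 5-azacitidine. Leaving out combination replicate 1 or 3 or any vehicle library ended the call, with adjusted p from 0.0710 to 0.135, and 7 of 12 such fits kept it. The Grb2 call was also lost with no low-count filter (-0.44, adjusted p = 0.0629) and with Lyz2 as a covariate (-0.44, adjusted p = 0.0654). With Xist as a covariate it was lost too (-0.58, adjusted p = 0.133), in a fit that called 0 of 17475 tested genes. Without the 4 libraries lowest in Lyz2, which leaves only replicate 3 of combination and of vehicle, the log2 change was -0.60. A list of 9 neutrophil genes held Ltf, Camp, Ngp, Lcn2, S100a8, S100a9, Mmp8, Mmp9 and Cxcr2. They summed to 27673, 32140 and 31234 CPM in combination mice and 67315, 50439 and 32469 CPM in vehicle mice. Of the 9, 3 were called lower (Mmp8, Mmp9 and Cxcr2), against 7.97% of tested genes. The part of neutrophils in the Grb2 result was not tested.

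Shc1 (ENSMUSG00000042626.13, chr3:89418443-89430027, plus strand), the phosphotyrosine adaptor that gives Grb2 a docking site, ranged from 173 to 224 CPM in combination mice, 146 to 180 CPM in PD-901 mice, 160 to 225 CPM in 5-azacitidine mice and 169 to 187 CPM in vehicle mice. The log2 change of combination against vehicle was 0.08 ± 0.15 (adjusted p = 0.802).

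Of the exchange factors, Sos1 was higher with the combination than with PD-901 alone, and Sos2 passed no test. Sos1 (ENSMUSG00000024241.7, chr17:80393751-80480453, minus strand) had 42.0, 50.8 and 43.4 CPM in combination mice, 26.7, 24.0 and 31.2 CPM in PD-901 mice, 35.8, 34.8 and 31.7 CPM in 5-azacitidine mice and 36.2, 36.8 and 34.2 CPM in vehicle mice. The combination libraries were above the 9 others and the PD-901 libraries below the 9 others, patterns held by 3.54% and 0.441% of tested genes. Sos1 was the only 1 of the 10 genes called in the joint test of the 4 groups (adjusted p = 0.0295, against 6.96% of tested genes called). Combination exceeded PD-901 by 0.73 ± 0.14 on the log2 scale (95% interval 0.43 to 1.04, n = 3 each, adjusted p = 0.00743), with means of 45.4 ± 4.73 CPM in combination mice and 27.3 ± 3.62 CPM in PD-901 mice. That call held in 12 of 12 fits leaving out a library, with adjusted p from 0.00653 to 0.0383. It was lost with Lyz2 as a covariate (0.71, adjusted p = 0.0861). Without the 4 libraries lowest in Lyz2, which leaves 1 combination mouse, the log2 change was 0.66. The groups ordered as combination, vehicle, 5-azacitidine and PD-901. No neighbours in that order passed the threshold: combination against vehicle was 0.35 ± 0.14 (adjusted p = 0.125), 5-azacitidine against vehicle -0.07 ± 0.14 (adjusted p = 0.866) and 5-azacitidine against PD-901 0.32 ± 0.14 (adjusted p = 0.665).

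Sos2 (ENSMUSG00000034801.13, chr12:69583762-69681852, minus strand), the paralogue with the same domains, had 63.8, 86.5 and 80.4 CPM in combination mice, 92.3, 83.1 and 92.8 CPM in PD-901 mice, 103, 86.9 and 79.0 CPM in 5-azacitidine mice and 116, 98.3 and 82.3 CPM in vehicle mice. The log2 change of combination against vehicle was -0.36 ± 0.16 (adjusted p = 0.143). The Sos1 share of Sos1 plus Sos2 per kb was 34.6%, 32.1% and 30.2% in combination mice, 18.9%, 18.9% and 21.3% in PD-901 mice, 21.9%, 24.4% and 24.4% in 5-azacitidine mice and 20.0%, 23.1% and 25.0% in vehicle mice. All combination shares were above all others.

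**Figure D2:**
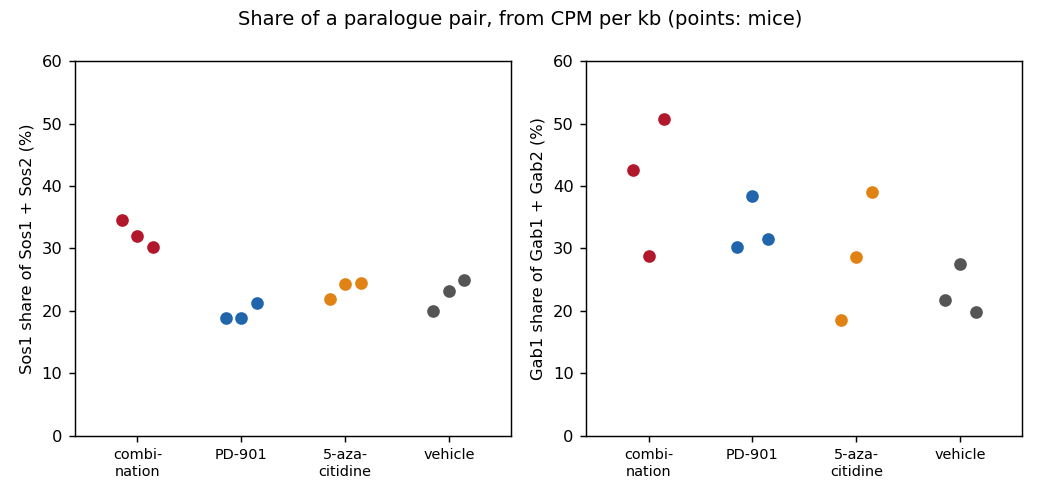
Share of Sos1 in Sos1 plus Sos2 (left) and of Gab1 in Gab1 plus Gab2 (right), in percent of CPM per kb, for each mouse. The Sos1 share was 30.2% to 34.6% in combination mice and 18.9% to 25.0% in the other 9, and the Gab1 shares of combination (28.7% to 50.8%) and PD-901 mice (30.2% to 38.5%) lie above those of vehicle mice (19.9% to 27.6%) but overlap each other and those of 5-azacitidine mice.

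The upstream sequence of Gab1, Grb2 and Sos1 is shown because these are the members that passed a test, in mice of which some received a drug that lowers DNA methylation at CG dinucleotides. Methylation was not measured here. Each line is the 250 bases before a RefSeq transcription start (GRCm38.p6) in the direction of the gene, with each CG in capitals. For Gab1 and Grb2 it is 1 of 2 such windows in the table used.
Gab1, chr8:80880520-80880769, minus strand: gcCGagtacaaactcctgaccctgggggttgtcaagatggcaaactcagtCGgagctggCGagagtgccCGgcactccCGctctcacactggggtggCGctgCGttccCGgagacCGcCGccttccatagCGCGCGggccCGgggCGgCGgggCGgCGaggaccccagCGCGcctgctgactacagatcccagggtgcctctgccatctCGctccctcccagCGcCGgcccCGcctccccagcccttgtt
Sos1, chr17:80480454-80480703, minus strand: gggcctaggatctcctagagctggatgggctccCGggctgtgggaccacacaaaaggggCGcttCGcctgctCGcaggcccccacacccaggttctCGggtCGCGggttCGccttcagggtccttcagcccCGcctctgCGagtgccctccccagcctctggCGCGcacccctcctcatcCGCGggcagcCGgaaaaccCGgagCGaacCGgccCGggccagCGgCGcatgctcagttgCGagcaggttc
Grb2, chr11:115699535-115699784, minus strand: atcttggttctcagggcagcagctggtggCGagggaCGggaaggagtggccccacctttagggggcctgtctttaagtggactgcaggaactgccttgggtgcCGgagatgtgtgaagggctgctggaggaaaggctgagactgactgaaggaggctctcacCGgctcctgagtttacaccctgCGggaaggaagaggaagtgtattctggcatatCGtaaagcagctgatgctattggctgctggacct
The motif searched was CG, which reads the same on both strands. Gab1 held 24 and Sos1 22, more than 88.0% and 85.2% of 32851 promoters of the same length, of which 92.1% held a CG and the median held 6. The Grb2 window shown held 6 and the other Grb2 window held 2. Both lie inside the locus as the count table bounds it, so the bases before its outer end (chr11:115708597) are not shown. High CG counts were not particular to the members that passed a test: Sos2 held 47, Cbl 33, Ptpn11 31, Rasa1 24 and Nf1 21, and the Shc1 windows held 12 and 4. No window is given here for Gab2.

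The Ras-inactivating members and Cbl passed no test. Nf1 (ENSMUSG00000020716.16, chr11:79339693-79581612, plus strand) ranged from 22.1 to 32.6 CPM in combination mice, 22.0 to 31.3 CPM in PD-901 mice, 20.7 to 30.9 CPM in 5-azacitidine mice and 27.0 to 31.3 CPM in vehicle mice, with a log2 change of -0.07 ± 0.20 for combination against vehicle (adjusted p = 0.886). Rasa1 (ENSMUSG00000021549.14, chr13:85214780-85289130, minus strand) ranged from 40.9 to 52.1 CPM in combination mice, 43.8 to 51.8 CPM in PD-901 mice, 38.8 to 58.7 CPM in 5-azacitidine mice and 47.6 to 55.7 CPM in vehicle mice, and its log2 change was -0.17 ± 0.16 (adjusted p = 0.578). Cbl (ENSMUSG00000034342.9, chr9:44142976-44234049, minus strand) had 224, 389 and 261 CPM in combination mice, 327, 283 and 369 CPM in PD-901 mice, 329, 268 and 259 CPM in 5-azacitidine mice and 410, 409 and 328 CPM in vehicle mice. Its log2 change was -0.39 ± 0.19 for the combination (adjusted p = 0.192) and -0.42 ± 0.19 for 5-azacitidine (adjusted p = 0.304), each against vehicle. Without combination replicate 2, the highest of its group, the combination value was -0.66 (adjusted p = 0.0140). That was the only 1 of 12 fits leaving out a library in which Cbl passed. Adjusted p ran up to 0.588 in the others.

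Counts of members called were read against all tested genes. In combination against vehicle, 2 of 10 members were called, 1 higher and 1 lower, against a background of 13.8% of tested genes (5.78% higher, 7.97% lower), and the members' median log2 change was -0.12 beside 0.01 for all tested genes. At an unadjusted p under 0.05 there were 4 of 10 members (background 27.5%), and libraries did not overlap for 3 of 10 (background 32.0%). In combination against PD-901 1 of 10 was called, higher, against 6.82% of tested genes (1.69% higher, 5.12% lower), and libraries did not overlap for 2 of 10 (background 27.7%). In combination against 5-azacitidine edgeR called 0 of 10, against 1.32% of tested genes (0.252% higher, 1.07% lower), and libraries did not overlap for 3 of 10 (background 18.6%). An unadjusted p under 0.05 was reached by 3 of 10 (background 15.8%). DESeq2 called 2 of 10, Gab1 and Grb2 (7.44% of the genes it gave an adjusted p).

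Against vehicle, each single agent gave 0 of 10 calls in edgeR, where the background was 0% for PD-901 and 0.00572% for 5-azacitidine, and 0 of 10 in DESeq2, which called 0.0116% of genes for PD-901 and 4.11% for 5-azacitidine. PD-901 reached an unadjusted p under 0.05 for 2 of 10 members, Gab1 and Sos1 (background 4.88%), and its libraries did not overlap those of vehicle for the same 2 genes (background 12.8%). 5-azacitidine reached it for 1 of 10, Cbl (background 15.3%), with 0 of 10 not overlapping (background 20.5%). In 5-azacitidine against PD-901 edgeR called 0 of 10 (background 0%), and 1, Sos1, had an unadjusted p under 0.05 (background 7.30%). Libraries of that pair did not overlap for 1 of 10, also Sos1 (background 13.8%). No member had its PD-901 libraries above all 9 others, against 0.481% of tested genes. For Sos1 the PD-901 libraries were below vehicle and the combination libraries above 5-azacitidine, opposite directions without overlap that 1.02% of tested genes held. Scaled by total counts alone, the share of higher genes among all called in combination against vehicle was 54.8%, not 42.0%, and the median of all genes moved by 0.08.

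**Figure D3:**
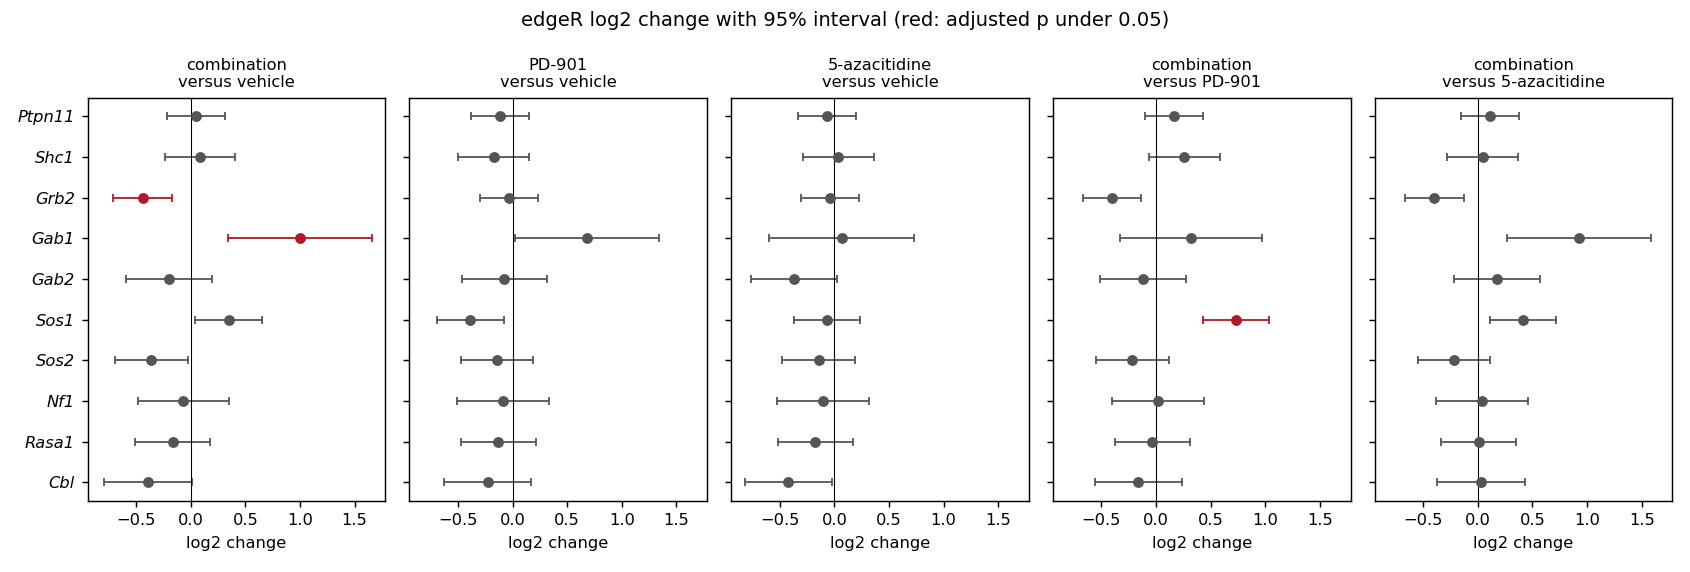
Log2 change of each of the 10 genes with its 95% interval, for 5 comparisons between groups; red points passed the adjusted threshold of 0.05. Gab1 (1.00) and Grb2 (-0.44) pass in combination against vehicle and Sos1 (0.73) in combination against PD-901, and no member passes for a single agent against vehicle.

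Among genes past the threshold, more fell than rose with the combination in each of 5 lists of the wider pathway, chosen by function. In the lists of exchange factors and Cbl relatives that rests on 1 gene each. Of all tested genes 7.97% were lower and 5.78% higher. Of 22 tested adaptors and docking partners other than the members, including Shp1, the phosphatase that dampens cytokine signalling, 7 fell and 0 rose, with a median log2 change of -0.41. Ptpn6, which encodes Shp1, averaged 336 ± 49.1 CPM in combination mice and 637 ± 44.7 CPM in vehicle mice (SD, n = 3 each), a log2 change of -0.92 ± 0.15 (adjusted p = 0.00322). Sirpa, a receptor that recruits Shp1 and Shp2, changed by -0.93, Dok3, an inhibitory docking protein, by -0.96, and Grap, a Grb2-related adaptor, by -1.44, with adjusted p of 0.00334, 0.00466 and 0.00641. Of 5 other Ras exchange factors 1 fell, Rasgrp4 (-1.27, adjusted p = 0.00777), a factor of myeloid and mast cells. Of 11 other GTPase-activating proteins and Nf1 partners 3 fell, Dab2ip (-1.18), Rasa3 (-0.79) and Rasal3 (-0.63), and of 5 Cbl relatives and partners 1 fell, Sh3kbp1 (-0.52). Among 12 upstream receptors 4 fell, namely Csf3r (-1.41), Csf1r (-1.26), Flt3 (-1.20) and Csf2ra (-0.98), the receptors of granulocyte, macrophage, early progenitor and granulocyte-macrophage growth signals, and Epor, the erythropoietin receptor, rose (1.08). Monocyte genes summed to between 1647 and 3113 CPM in combination mice and between 3436 and 4105 CPM in vehicle mice, with 3 of 6 lower. Dendritic cell genes summed to between 37.8 and 56.4 CPM in combination mice and between 149 and 274 CPM in vehicle mice (5 of 6 lower), and macrophage genes to between 186 and 311 CPM in combination mice and between 333 and 880 CPM in vehicle mice (3 of 6 lower). Basophil and mast cell genes summed to between 240 and 341 CPM in combination mice and between 627 and 897 CPM in vehicle mice (3 of 5 lower). The part of these cells in the values of the lists was not tested. In fits added after the data were seen, with Lyz2 as a covariate, 6 of 22 adaptors, 1 of 5 exchange factors, 3 of 11 GTPase-activating proteins and partners, 1 of 5 Cbl relatives and 4 of 12 receptors fell, against 6.41% of tested genes. Without the 4 libraries lowest in Lyz2, 1 combination mouse and 1 vehicle mouse are left. The median log2 changes were then -0.54, -1.12, -0.25, -0.54 and -0.86 in the same order of lists. With Xist as a covariate 0 genes of these lists were called, as were 0 of all tested genes. In combination against PD-901, 4 of 22 adaptors, 1 of 5 exchange factors, 2 of 11 GTPase-activating proteins and partners and 2 of 12 receptors (Csf3r and Csf2ra, log2 changes -1.71 and -0.80) fell, 0 of 5 Cbl relatives were called and Rasal2 rose, against 5.12% of tested genes lower and 1.69% higher.

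**Figure D4:**
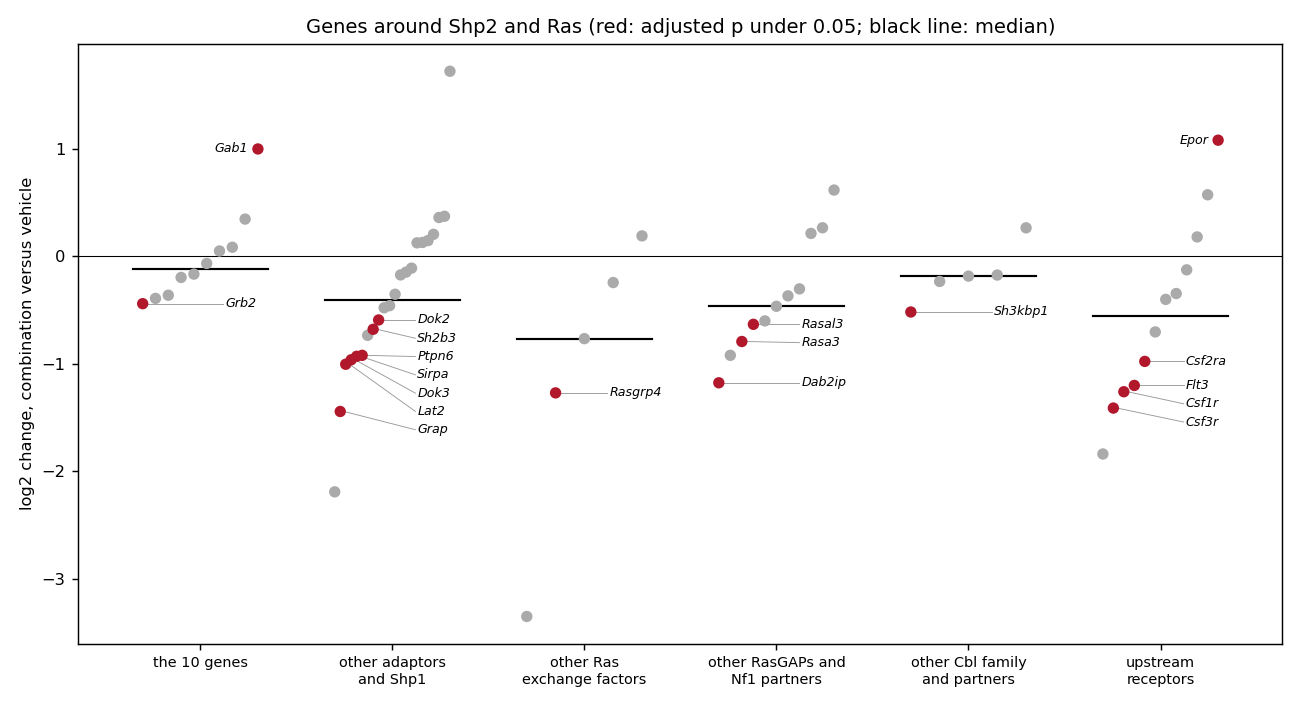
Log2 change of combination against vehicle for the 10 genes and for 5 lists around them; each point is a gene, red points passed the adjusted threshold of 0.05 and black lines are medians. Named fallers include Ptpn6 (-0.92), Grap (-1.44), Rasgrp4 (-1.27) and Csf3r (-1.41), and the risers are Gab1 (1.00) and Epor (1.08).

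Whether neighbouring genes could add reads was checked from the table's exons. The opposite-strand lncRNA Gm31105 shares 266 exon bases with Gab1, 5.23% of its exon length, but had 0 to 4 counts per library. Rasa1 and Ccnh share 12 exon bases, and Nf1 shares 0 exon bases with Omg, Evi2a and Evi2, which lie in it. Among the members' own pairs, the closest patterns over the 12 libraries were Sos2 with Cbl (r = 0.81) and Ptpn11 with Sos1 (r = 0.72), and the most opposite was Gab1 with Grb2 (r = -0.64), given as a description. The genes most like Ptpn11 were Depdc5, Cntrl and Hnrnpul2 (r = 0.92 each), Kri1 (r = 0.91) and Ict1os (r = 0.90), and none of these changed past the threshold with the combination.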

How the data were processed

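The authors deposited 1 table of raw read counts per gene, with no normalization, for the 12 mice. STAR 2.7.2a, Subread 1.6.5, featureCounts, bcl2fastq and the build mm10 are listed in the submitters' processing notes. Strand setting and annotation release were not given in the sources used here, and reads of overlapping genes on opposite strands may not be separated. GENCODE M21 holds 55180 of the 56350 identifiers, each with an identical start and end. The replicates are separate mice per the labels' protocols, and replicate numbers here follow accession order and only name them. Libraries of a group were not copies of one another (pairwise chi-square over genes of 18.1 to 61.4 per degree of freedom).

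The main test used edgeR 4.0.16 under R 4.3.3. The low-count filter was filterByExpr (minimum count 10, minimum total 15), which left 17475, and scaled by TMM (factors 0.929 to 1.07). A robust quasi-likelihood model with 1 mean per group was fitted to all 12 libraries (8 residual degrees of freedom). The 8 comparisons were 6 between groups, the departure from additivity and a joint test, all two-sided, with Benjamini-Hochberg adjustment over all tested genes and a threshold of 0.05. The common biological coefficient of variation was 0.328. The procedure was checked on simulated counts for combination against vehicle. It recovered 53% of 2-fold and 80% of 4-fold changes at the threshold, and 8 of its 141 calls were false. Alternatives were other scalings and filters, DESeq2 1.42.0, limma-voom (limma 3.58.1), fits of only the groups compared, covariates for Xist and Lyz2, and leaving out libraries. Named genes are all 10 members, up to 4 genes with the lowest p past the threshold per pathway list, and the 5 most like Ptpn11 and Gab1. Epor and Rasal2 were named after their values were seen. The members and lists were chosen with earlier results of these data known.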

Additional observations from a re-analysis of the deposited data

Results flagged for a closer look

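Sos1 was flagged because its libraries with PD-901 departed in opposite directions from those without, depending on 5-azacitidine. Neither difference passed the threshold. PD-901 against vehicle was -0.39 ± 0.14 (adjusted p = 0.960) and combination against 5-azacitidine was 0.41 ± 0.14 (adjusted p = 0.163). All 3 combination libraries were above all 3 5-azacitidine libraries, whereas all 3 PD-901 libraries were below all 3 vehicle libraries, a pattern of opposite, non-overlapping directions held by 1.02% of tested genes. The departure from additivity was 0.80 ± 0.20 on the log2 scale (95% interval 0.37 to 1.23). It missed the threshold in edgeR's quasi-likelihood test (unadjusted p = 0.00125, adjusted p = 0.165, with 0 of 17475 genes called) and passed in DESeq2 (adjusted p = 0.0235, with 281 genes called). In edgeR the departure passed in 0 of 12 fits leaving out 1 library.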

How the results depend on the processing

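No paired analysis was possible because neither the labels nor the columns carry replicate numbers that link mice of different groups. The number of members called moved as follows. In combination against vehicle (2 in the edgeR fit, background 13.8%) it was 1 with no low-count filter and 0 to 3 over fits leaving out 1 library. It was 0 with the Xist covariate (0% of tested genes called) and 0 with the Lyz2 covariate (10.3% called). The fit without the 4 libraries lowest in Lyz2 leaves 1 combination mouse and 1 vehicle mouse, so its calls are not counted here. In combination against PD-901 (1, background 6.82%) it was 2 with the stricter filter, 2 with DESeq2 and 0 with the Lyz2 covariate. Leaving out 1 library it was 1 to 2, with 386 to 1563 of all genes called. In combination against 5-azacitidine (0, background 1.32%) it was 1 with no filter and 2 with DESeq2 (7.44% of its genes called). In the joint test (1, background 6.96%) it was 2 with no filter, 3 with DESeq2 and 0 with either covariate. Leaving out 1 library it was 0 to 1, with 4 to 1674 of all genes called. For the departure from additivity (0) DESeq2 gave 1. The number of all genes called also differed between settings, so these counts were not read as results about the members. With the Xist covariate Gab1 was 1.47 (adjusted p = 0.114) and Grb2 -0.58 (adjusted p = 0.133) against vehicle, and Sos1 against PD-901 0.76 (adjusted p = 0.0411). With the Lyz2 covariate Gab1 was 0.96 (adjusted p = 0.0717) and Grb2 -0.44 (adjusted p = 0.0654). Directions reversed in combination against vehicle only for members that had passed no test: with the Xist covariate Gab2 (0.13), Ptpn11 (-0.050), Rasa1 (0.20) and Shc1 (-0.027), with total counts Nf1 (0.019), without the 4 libraries lowest in Lyz2 Nf1 (0.10) and Rasa1 (0.13), and leaving out 1 library, where Nf1 ran from -0.20 to 0.074, Ptpn11 from -0.041 to 0.12 and Shc1 from -0.046 to 0.15 (reversed without combination replicate 1, 2 and 3 in that order). The causes of these shifts were not tested. Genes called in combination against vehicle ran from 803 to 2730 over the fits leaving out 1 library. The 3 mice per group limit what can be called.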
